A study of Mus musculus with 128 samples.

Results

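Immediate early genes are the genes a cell transcribes within the opening minutes of a stimulus, before any new protein has been made. The 35 examined here were chosen by name: the Fos and Jun families with Atf3 and Maff, the Egr, Nr4a and Klf transcription factors, Myc, Npas4 and Csrnp1, the Ier genes, 4 MAP kinase phosphatases, and Btg2, Zfp36, Gadd45b, Sik1, Arc and Apold1. All 35 had a row among the 55285 gene symbols of each tissue table. They were followed in 8 tissues (skin, lung, aorta, heart, gastrocnemius muscle, liver, kidney and brain) of untreated male wild-type C57BL/6J mice aged 6, 15, 24 or 30 months. The 32 groups of a tissue and an age had 4 mRNA-seq libraries each. Every group shares the same strain and sex, and the Aorta samples' own labels give neither. The labels do not say whether the 4 libraries of a group came from separate animals, so p-values measure the spread between libraries, which may in part be technical.

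In resting cells these genes are poised: the factors SRF and CREB already sit on their promoters and are switched on by phosphorylation when growth factors, calcium influx, shear stress or injury activate MAP kinase and calcium pathways. Their products are mostly short-lived transcription factors that drive a later wave of genes, together with phosphatases and RNA-decay factors that end the response. In brain they report recent neuronal activity, in vessels the endothelial Klf and Apold1 genes respond to flow, and in any tissue dissection and handling can raise them. Per the labels' protocols the tissues were frozen straight after collection. No source used here gives the time from death to freezing, and its part in the values below was not tested.

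Promoter sequences were searched for the letters that those factors read. RefSeq start-site windows on GRCm38.p6, from 250 bases before to 50 bases after the start, matched 28 of the 35 genes (Arc, Egr1, Egr3, Fosl1, Ier2, Myc and Sik1 were not matched). Searched on both strands, the CREB core CGTCA stood in 19 of the 28 (67.9%), against 23% of the 27025 genes with a window, any window counting where a gene has several start sites. The full cAMP response element TGACGTCA, which contains that core, stood in Btg2, Dusp1 and Maff (10.7% against 2.03%). The CArG box, the SRF site, stood in Dusp5, Egr2 and Zfp36 (10.7% against 1.81%). The TATA box TATAAA stood in Apold1, Fos, Gadd45b and Junb (14.3% against 9.77%). The AP-1 site TGACTCA stood in Csrnp1 (3.57% against 5.95%) and the Egr site GCGTGGGCG in Maff (3.57% against 0.707%). GC content was higher in the 37 windows of these genes (median 63.7%) than in all windows (52.7%), which bears on how often CG-containing letters occur. A match describes letters and is not a measured binding site. Letters outside the windows, and variants of these letters, were not searched, so a missing match does not mean that a gene lacks the site. The Egr2 window shown is the first of 3 overlapping windows of that gene that hold the same number of matches. The windows of 4 genes whose values are given below are shown 5′ to 3′ with matches in capitals (TGACG and CGTCA are the CREB core on either strand, TATAAA the TATA box, and the capital runs before the CGTCA of Egr2 and Dusp5 the CArG boxes), all on the + strand, at chr12:85473640-85473939 (Fos), chr10:67537619-67537918 (Egr2), chr19:53528895-53529194 (Dusp5) and chr6:134981751-134982050 (Apold1).
Fos: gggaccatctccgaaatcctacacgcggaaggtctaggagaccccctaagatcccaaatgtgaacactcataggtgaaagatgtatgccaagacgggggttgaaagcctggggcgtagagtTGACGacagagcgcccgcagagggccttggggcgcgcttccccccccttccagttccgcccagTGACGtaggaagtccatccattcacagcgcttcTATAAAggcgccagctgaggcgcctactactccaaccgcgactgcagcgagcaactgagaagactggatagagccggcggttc
Egr2: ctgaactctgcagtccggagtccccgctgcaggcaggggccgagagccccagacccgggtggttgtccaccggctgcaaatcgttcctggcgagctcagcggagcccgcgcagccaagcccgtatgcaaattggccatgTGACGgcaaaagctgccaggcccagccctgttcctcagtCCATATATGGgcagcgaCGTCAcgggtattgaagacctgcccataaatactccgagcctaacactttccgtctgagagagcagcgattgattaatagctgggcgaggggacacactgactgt
Dusp5: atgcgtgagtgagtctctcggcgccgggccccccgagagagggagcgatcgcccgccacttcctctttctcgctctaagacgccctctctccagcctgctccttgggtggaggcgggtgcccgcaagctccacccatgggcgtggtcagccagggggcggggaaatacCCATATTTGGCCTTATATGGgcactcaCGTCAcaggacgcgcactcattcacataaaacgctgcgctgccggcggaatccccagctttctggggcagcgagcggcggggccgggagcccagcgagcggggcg
Apold1: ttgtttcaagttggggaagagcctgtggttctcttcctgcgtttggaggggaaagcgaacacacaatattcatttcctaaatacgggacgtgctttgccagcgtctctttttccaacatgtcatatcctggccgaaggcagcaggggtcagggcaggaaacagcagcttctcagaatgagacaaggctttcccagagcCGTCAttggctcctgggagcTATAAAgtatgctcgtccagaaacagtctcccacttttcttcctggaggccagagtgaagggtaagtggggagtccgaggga
In the Fos window the CREB core began 129 and 66 bases before the start and the TATA box 33 bases before it. In the Egr2 and Dusp5 windows a CREB core 55 bases before the start followed CArG boxes at 72 bases, with another at 82 bases in Dusp5.

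Values are reads normalised by the authors within each tissue's table. Changes are log2 fold changes of value + 1 against 6 months, with standard errors, from limma fitted to the 16 libraries of a tissue. Adjusted p-values are Benjamini-Hochberg over all genes tested in that tissue (13420 in Liver to 17112 in Lung), called at 0.05, two-sided, and all 3 older ages share the 6-month libraries. Depth ran from 7.65 to 82.8 M reads per library. The 4 markers checked for each tissue had their highest level there, with Myh11, Acta2, Tagln and Eln in Aorta. The library of Heart at 24 months, replicate 4, stood apart: its median rank correlation with the other Heart libraries was 0.914 and mitochondrial genes took 40.6% of its reads. Replicates 2 and 3 of Liver at 30 months (0.957 and 0.934) and replicate 1 of Skin at 24 months (0.955) stood apart less far. In Muscle the lowest was replicate 3 of 30 months (0.969).

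The measured level of the same gene, over the libraries of all ages, differed widely between tissues. The part of dissection and handling in these levels was not tested. Fos, the founding subunit of the AP-1 dimer, had a median of 57.8 RPM (reads scaled to each library's recovered depth) over the 16 Lung libraries (18.3 to 341.2), 43.1 in Brain (16.9 to 73.5) and 37.98 in Aorta (10.1 to 333.5). It was lower in Skin (median 14.1), Muscle (11.6), Heart (3.08), Kidney (1.58) and Liver (0.997). The ranges of neighbours in that order overlap, whereas the highest of the 16 Liver libraries (5.97) lay below the lowest of Lung, Brain, Aorta and Skin. Arc, a protein of the postsynaptic density, was at a median of 237.7 RPM in Brain (69.9 to 347.5), and its next highest median was 5.96, in Aorta. Egr4 (28.6) and the neuronal factor Npas4 (20.1) were also highest in Brain. Klf2, a flow-responsive factor of endothelium, was highest in Lung (231.5, from 132.1 to 408.7), followed by Aorta (44.04) and Heart (39.05). The tables were normalised separately, so only RPM were compared across them.

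**Figure D1:**
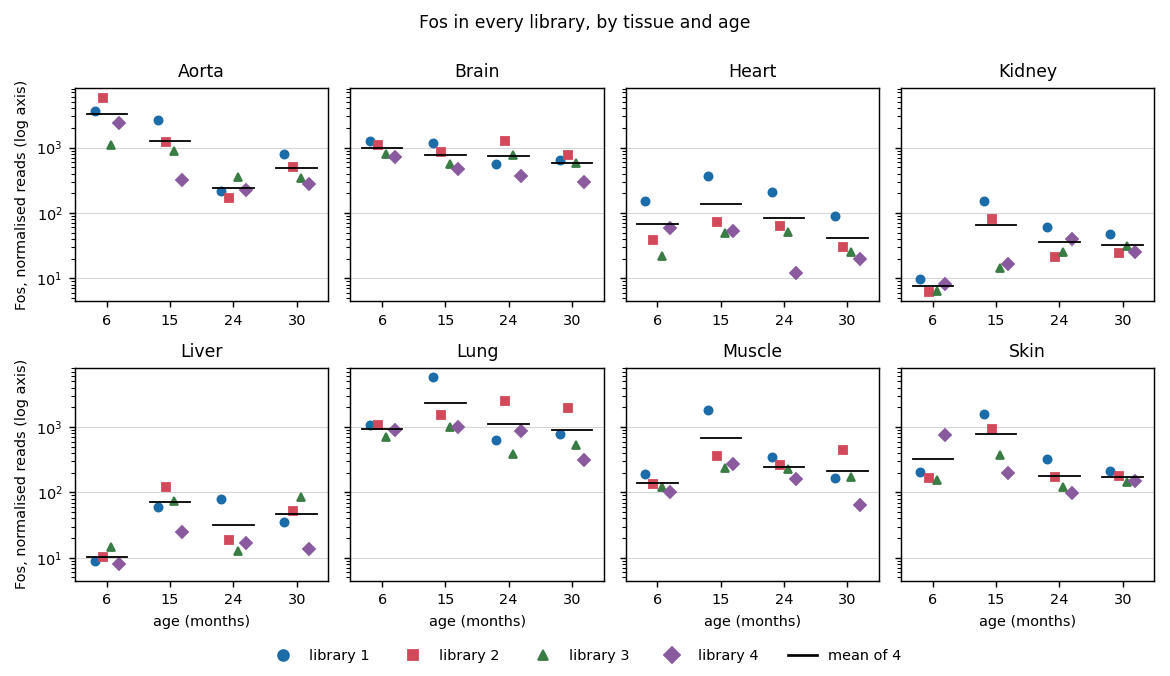
Normalised Fos reads (log axis) in each of the 16 libraries of the 8 tissues by age, each marker a library and each black bar the mean of 4. In Aorta all libraries of 24 and 30 months lie below all libraries of 6 months, in Kidney all older libraries lie above those of 6 months, and single libraries stand far above the rest of their age in Heart, Lung and Muscle at 15 months.

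Between libraries of the same tissue and age these genes scattered more than most. The median residual SD of the tested members on the log2 scale lay between 0.338 (Kidney) and 0.652 (Liver), against 0.135 to 0.270 for all genes of the same tissues. Fos had an SD of 0.601 in Brain and 1.298 in Heart, where it was the most variable of the 31 members tested. Among the 4 Aorta libraries of an age Fos differed from 2.09-fold (24 months) to 8.39-fold (15 months) between the lowest and the highest, and Fosb from 4.27-fold to 5.71-fold. Among the Brain libraries of an age Fos differed from 1.75-fold to 3.48-fold. Jund, a Jun protein that is steadily expressed, and Klf6 were among the least variable, with SDs of 0.120 for Jund in Kidney and 0.0858 for Klf6 in Brain.

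Of 280 pairs of a member and a tissue, 254 passed the filter on low reads and were tested. At 30 against 6 months 54 pairs passed the threshold, 27 higher and 27 lower, and 31 of the 35 members passed in at least 1 tissue. The lower calls lay in Aorta (19, when 2.59% of all genes were called lower), Brain (7, 4.18%) and Muscle (1, 6.92%). The higher calls lay in Kidney (18, when 14.1% of all genes were called higher), Liver (6, 13.8%), Muscle (2, 6.15%) and Lung (1, 10.7%). Heart (4.11% of all genes higher, 1.04% lower) and Skin (0.167% and 0.553%) had none. Among the 31 members, 10 were called higher in 1 tissue and lower in another. The shares of all genes called in at least 1 tissue, or in both directions, were not computed. The counts of 31 and 10 are therefore not read as a trait of these genes. Fos itself was called lower in Aorta and higher in Kidney and Liver.

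**Figure D2:**
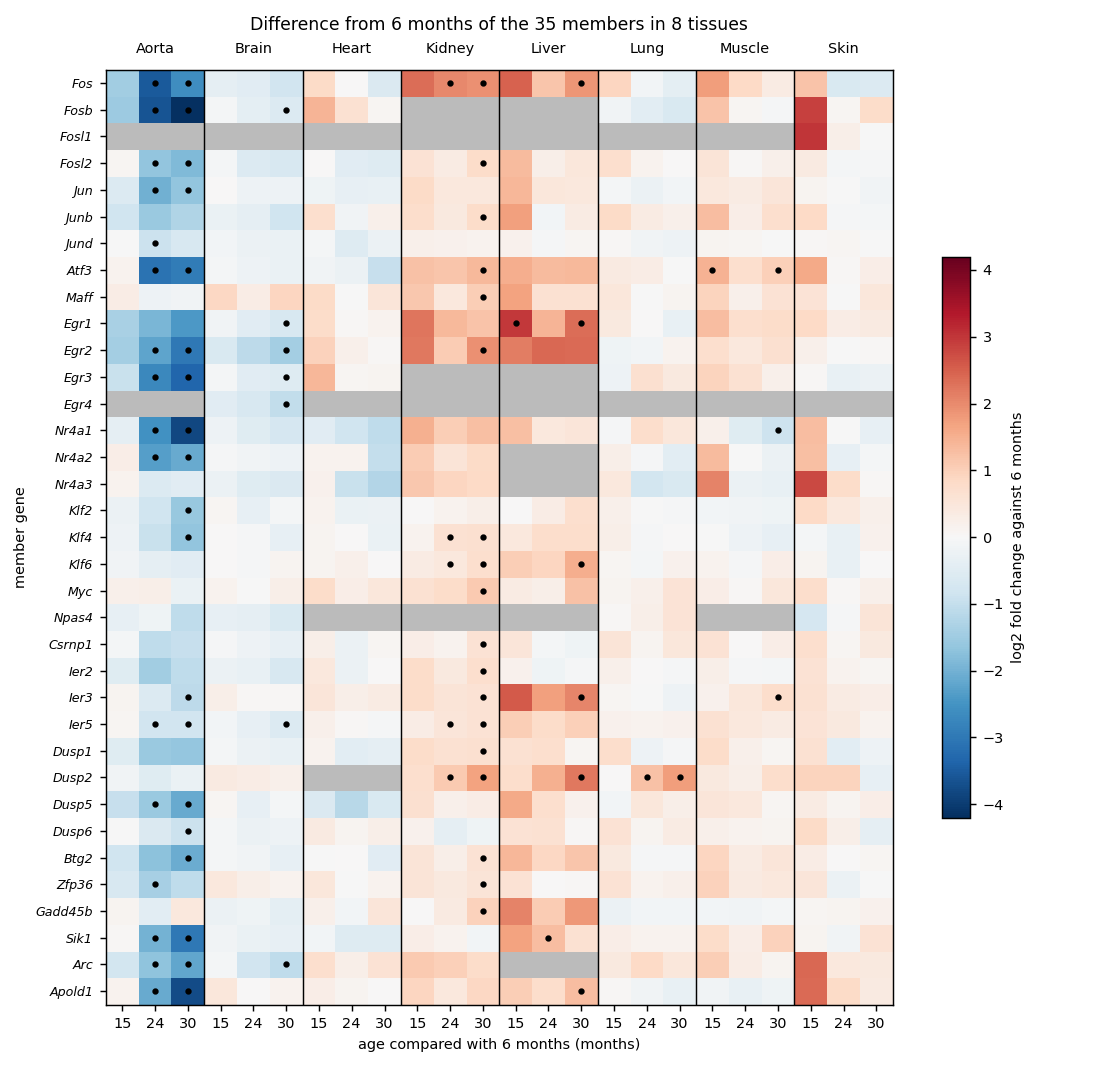
Log2 fold change against 6 months of each member (rows) in each tissue at 15, 24 and 30 months (columns), with a dot where the adjusted p is under 0.05 and grey where the gene was not tested. Aorta is lower across nearly all rows at 24 and 30 months (19 dots at 30 months, when 2.59% of all genes were called lower). Kidney is higher with 18 dots at 30 months, when 14.1% of all genes were called higher.

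In Aorta 19 of the 33 tested members fell by 30 months and none rose. At that age 32 of 33 tested members had lower values than at 6 months, and 19 of them were called lower when 2.59% of all genes were called lower in this comparison. At 24 months 32 had lower values and 16 were called, against a background of 3.01%. The median change over the members was -1.55 at 24 and -1.62 at 30 months, while the median over all genes was within 0.03 of 0. At 15 months none of the 33 was called (0.0334% of all genes were called lower and 0.0534% higher), 5 had an unadjusted p under 0.05, edgeR and DESeq2 also called 0, and the median was -0.21. With any single library left out, 9 of the 16 calls at 24 months and 13 of the 19 at 30 months were kept under every omission. The count at 24 months fell to 9 without replicate 1 or 4 of 24 months or replicate 2 of 6 months, which each ended the calls of Nr4a1, Egr3, Egr2, Zfp36, Jun, Ier5 and Jund.

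The AP-1 subunits were followed in the individual Aorta libraries. Fos read 3633, 5792, 1096 and 2366 at 6 months, 2654, 1213, 898.7 and 316.3 at 15 months, 218, 167.7, 350 and 228.2 at 24 months, and 796.4, 507.4, 343.5 and 276.5 at 30 months. The 24- and 30-month libraries all lay below all 6-month libraries, and the 15-month libraries spanned the gap. The change was -3.54 ± 0.56 at 24 months (adjusted p = 0.00327) and -2.62 ± 0.56 at 30 months (adjusted p = 0.0153), and the latter passed in 14 of 16 omissions, failing without replicate 3 of 30 months or replicate 2 of 6 months (highest 0.0559). Fosb, a relative of Fos, went from 1052 ± 714.9 (SD, n = 4) to 55.2 ± 32.9 at 30 months, a change of -4.18 ± 0.60 (adjusted p = 0.00177). Fosl2 changed by -1.86 ± 0.26 (0.00142) and their partner Jun by -1.66 ± 0.46 (0.0459), a call that ended in 10 of 16 omissions. Atf3, a stress-induced bZIP factor, read 478.8, 2436, 1500 and 652.5 at 6 months and 184.1, 124.5, 99.6 and 137 at 30 months. Its groups do not overlap, and it changed by -2.95 ± 0.43 (adjusted p = 0.0019). Junb (-1.27, adjusted p = 0.166) and Jund did not pass at 30 months.

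Among the other Aorta transcription factors the nuclear receptor Nr4a1 had the highest level at 6 months, with 9005, 13830, 4669 and 2649 reads. At 30 months it read 592.1, 458.5, 240.5 and 567.7, all below the lowest young library, a change of -3.83 ± 0.69 (adjusted p = 0.00598). Nr4a2 changed by -2.12 ± 0.37 (0.00498). Egr2 changed by -3.003 ± 0.561 (0.00771) and Egr3 by -3.34 ± 0.76 (0.0192). Egr1, the zinc finger factor most often used as a marker of the response, changed by -2.41 ± 0.71 and did not pass (adjusted p = 0.0561). Klf2 and Klf4, which hold endothelium in its flow-adapted state, changed by -1.58 ± 0.26 (0.00374) and -1.67 ± 0.28 (0.00409). Klf4 read 736.2, 1627, 1012 and 1329 at 6 months and 327.9 to 366.6 at 30 months, without overlap. Klf6, a relative of both, changed by -0.47 and did not pass (0.108).

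The Aorta effectors held the smallest p-values. Apold1, an endothelial gene regulating vascular signalling, read 592.9, 1647, 864.9 and 641 at 6 months, 788.1, 1854, 784.7 and 685.6 at 15 months, 206.6, 148.6, 272.2 and 182 at 24 months, and 66.1, 49.99, 45.8 and 102.8 at 30 months. The 6- and 15-month libraries interleave, the 24-month libraries lie below them and the 30-month libraries below those of 24 months. The change was -2.11 ± 0.35 at 24 months (adjusted p = 0.00398) and -3.75 ± 0.35 at 30 months (5.01e-05). Sik1, a kinase induced by cAMP, went from 1075 to 2641 reads at 6 months to 151 to 303.4 at 30 months, a change of -2.99 ± 0.35 (0.000289). Arc changed by -2.19 ± 0.31 (0.00173). Of the phosphatases, which switch off MAP kinases, Dusp5 changed by -2.13 (0.00246) and Dusp6 by -0.90 (0.0453), and Dusp1 by -1.62 ± 0.47 without passing (0.0548). The antiproliferative factor Btg2 changed by -2.09 (0.045), Ier3 by -1.08 (0.00898) and Ier5 by -0.80 (0.0321). The calls of Dusp6, Btg2, Jun, Egr3 and Ier5 at 30 months all ended without replicate 1, 2 or 3 of 30 months or replicate 2 of 6 months, and some of them without other libraries (highest adjusted p 0.131). The member whose value was higher at 30 months was Gadd45b, a stress sensor (0.46 ± 0.28, adjusted p = 0.349).

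**Figure D3:**
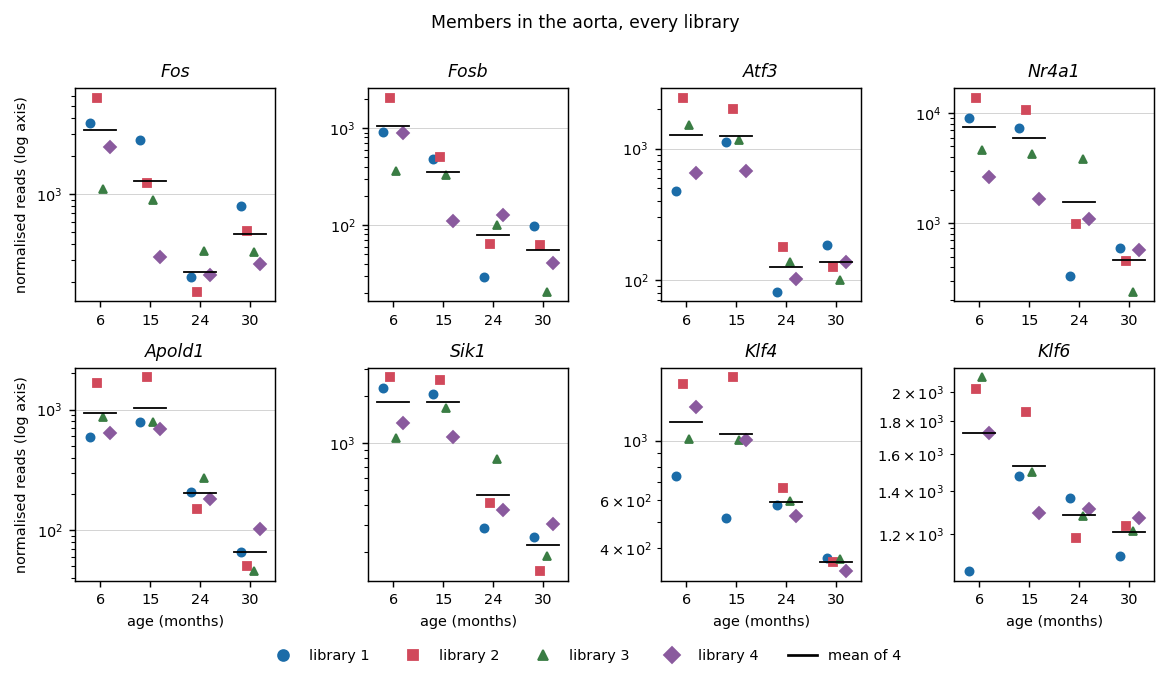
Normalised reads (log axis) of 8 members in the 16 Aorta libraries by age, each marker a library and each black bar the mean of 4. The 6- and 15-month libraries overlap, and for Fos, Fosb, Atf3, Nr4a1, Apold1, Sik1 and Klf4 all 30-month libraries lie below all 6-month libraries, whereas the Klf6 groups overlap.

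Other lists were read in the same Aorta libraries. Of 24 other primary response genes, 9 were called lower and 2 higher at 30 months (median -0.71), with Gem at -1.93 and Plk3 at -2.06. Of 8 heat shock genes 5 were called lower (median -1.09). Hspa1a changed by -3.90 ± 0.56 (adjusted p = 0.00177) and Hspa1b by -3.79 ± 0.57 (0.00205), copies so alike that the split of reads between them is uncertain. The summed level of 6 endothelial markers ran from 8132 to 12220 at 6 months and from 8479 to 9983 at 30 months. For 4 smooth muscle markers it ran from 44810 to 82310 and from 43570 to 76380, and for adipocyte markers from 81540 to 132600 and from 123300 to 153700. The endothelial and smooth muscle ranges thus overlap between the ages, and the adipocyte range is shifted upwards. Neuron markers ran from 7.71 to 1426 and from 0 to 100.7, with overlap. The astrocyte list was higher without overlap (1002 to 1377, then 1453 to 1855). Macrophage markers overlapped (993.6 to 2127, then 1238 to 1951), and their deviations correlated with those of Fos at r = -0.687, given as a description. The part of these markers in the members' change was not tested. In bulk tissue, fewer cells of a type and less RNA per cell cannot be told apart.

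In Kidney 18 of the 30 tested members rose by 30 months and none fell. At that age 28 had higher values than at 6 months, and 18 of them were called higher when 14.1% of all genes were called higher, with a median change of 0.75. At 24 months 29 had higher values and 5 were called (background 6.72%). At 15 months all 30 had higher values, with a median of 0.72, and none was called (background 0.378% higher and 0.102% lower). An unadjusted p was under 0.05 for 25 members, and edgeR called 0. DESeq2 called 12 members, with 169 of all 15625 genes higher and 72 lower. By limma without replicate 3 of 15 months 4 members were called at 15 months. The limma count was 1 without replicate 4 of 15 months or replicate 3 of 6 or 30 months. The 24-month count was 2 without replicate 3 of 24 or replicate 2 of 6 months and 3 without replicate 4 of 24 months. Fos read 9.59, 6.27, 6.35 and 8.10 at 6 months, 149.7, 81.97, 14.3 and 16.5 at 15 months, 60.1, 21.0, 24.98 and 39.5 at 24 months, and 47.9, 24.3, 30.9 and 25.3 at 30 months. Every older library exceeded every young one, and the 15-month libraries split into a high and a low pair. Its change was 2.33 at 15 months (adjusted p = 0.0789), 2.02 ± 0.57 at 24 months (0.0309) and 1.91 ± 0.57 at 30 months (0.0187), and the 30-month call ended without replicate 1 of that age (0.0502).

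The smallest adjusted p in Kidney belonged to Klf6, an injury-responsive Klf factor. It read 495.9, 450.3, 492.5 and 504.2 at 6 months and 684.2, 794.8, 864.1 and 847.7 at 30 months, without overlap, a change of 0.71 ± 0.10 (0.00012). Ier5 changed by 0.61 ± 0.10 (0.000399), Gadd45b by 0.97 ± 0.16 (0.000549) and Klf4 by 0.67 ± 0.16 (0.00595). Dusp2, a phosphatase abundant in leukocytes, went from 4.30 ± 1.51 (SD, n = 4) to 16.6 ± 8.03 reads, a change of 1.68 ± 0.34 (0.00167). Its 6-month values lay near the floor of detection. Myc, the growth regulator, changed by 1.10 ± 0.27 (0.00604). Junb (0.78), Fosl2 (0.77), Maff (1.04), Atf3 (1.35), Egr2 (1.91), Ier2 (0.72), Ier3 (0.59), Btg2 (0.62), Csrnp1 (0.61), Dusp1 (0.67) and the RNA-decay factor Zfp36 (0.53) were also called. Egr1 (1.20 ± 0.72, adjusted p = 0.225), Nr4a1 (1.27, 0.139), Jun (0.45, 0.0937), Arc (0.78, 0.174) and Klf2 (0.25, 0.46) did not pass. Of the 18 calls, 11 were kept under every omission. Those of Egr2, Fos, Csrnp1, Dusp1, Zfp36, Atf3 and Ier3 ended without at least 1 of replicates 1 to 4 of 30 or of 6 months, 5 of them without replicate 4 of 30 months.

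In the same Kidney libraries 10 of 23 other primary response genes were called higher and none lower (median 0.40), including the cytokine feedback genes Socs3 (1.62) and Tnfaip3 (1.26). Summed macrophage markers ran from 1193 to 1290 at 6 months and from 1670 to 3746 at 30 months. Neutrophil markers ran from 6.72 to 10.2 and from 28.99 to 44.4, and T cell markers from 43.9 to 59.7 and from 98.5 to 169.5, none of these pairs overlapping. Smooth muscle markers (1599 to 1735, then 2200 to 2733) and adipocyte markers (90.3 to 135.7, then 224.3 to 428.6) were also higher without overlap, while endothelial markers ran from 4282 to 4613 and from 4441 to 4711. The part of these markers in the members' change was not tested.

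In Liver few members passed the threshold: 1 of 27 at 15 months, 1 at 24 months and 6 at 30 months, all of them higher. At 15 months all 27 tested members had higher values than at 6 months, with a median of 1.25. Egr1 alone was called (background 0.693%), and 17 had an unadjusted p under 0.05. DESeq2 called 11 members, with 298 of all 13420 genes higher and 229 lower. At 24 months 23 had higher values and Sik1 alone was called (background 7.6%), a call that was kept only without replicate 3 or 4 of 15 months, replicate 3 of 30 months or replicate 1 of 6 months. At 30 months 25 had higher values and 6 were called, at a background of 13.8%, with a median of 0.69. The 30-month count was 3 without replicate 2 of 30 months or replicate 4 of 6 months, and 10 without replicate 3 of 15 months. Without replicate 3 of 30 months, a library that stood apart, 4 members were called at 30 months, 2 at 24 months and 7 at 15 months. The 15-month count was 2 without replicate 1 of 15 or of 24 months, 3 without replicate 4 of 15 or of 30 months, and 0 without replicate 2 or 3 of 15 or of 6 months. The 24-month count was 4 without replicate 3 of 15 months.

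Egr1 in Liver read 77.3, 55.7, 38.5 and 79.5 at 6 months, 312.7, 747.6, 986.1 and 226.5 at 15 months, 383, 93.9, 50.6 and 398.6 at 24 months, and 734.2, 236.7, 148.4 and 348.3 at 30 months. The 15- and 30-month libraries lie wholly above the young ones, whereas 1 of the 24-month libraries lies within the young range. It changed by 2.97 ± 0.65 at 15 months (adjusted p = 0.0361) and by 2.33 ± 0.65 at 30 months (0.0155). The 15-month call ended without replicate 2 or 3 of that age or any of the 6-month libraries (highest 0.111), and the 30-month call was kept throughout. Klf6 changed by 1.51 ± 0.30 (0.00211), Dusp2 by 2.22 ± 0.58 (0.0117), Apold1 by 1.29 (0.0173), Fos by 1.84 ± 0.60 (0.0342) and Ier3 by 2.05 (0.0399) at 30 months. The calls of Klf6 and Dusp2 were kept under every omission, while Fos and Ier3 each lost theirs in 6 and Apold1 in 2, all 3 of them without replicate 2 of 30 months or replicate 4 of 6 months. Atf3 (1.35, 0.0819), Klf2 (0.69, 0.0736), Jun (0.45, 0.451), Nr4a1 (0.51, 0.683) and Dusp1 (0.08, 0.902) did not pass. Summed macrophage markers in Liver ran from 1950 to 2728 at 6 months and from 4411 to 14120 at 30 months, and their deviations from the age means correlated with those of Fos at r = 0.804 over the 16 libraries, given as a description. Neutrophil (11.9 to 28.8, then 74.8 to 351.2), T cell (8.44 to 33.8, then 37.7 to 258.4), B cell (32.1 to 66.5, then 145.9 to 323.4) and endothelial markers (2224 to 2599, then 2798 to 3246) were also higher without overlap, and the part of these cells was not tested.

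In Brain 7 of 34 tested members, Arc and all 4 Egr genes among them, fell by 30 months and none rose. At that age 27 had lower values and 4.18% of all genes were called lower, with a median over the members of -0.34. None was called at 15 months (background 0.0247% higher and 0% lower, with 3 members at an unadjusted p under 0.05) or at 24 months (0.581% higher and 0.0865% lower, with 11), and edgeR and DESeq2 called 0 at both. With 5 added to the values in place of 1, or the 2 ages fitted alone, 1 member was called at 24 months. With the replicate number as a block the counts at 24 and 30 months were higher, as given in the section on processing. At 24 months Egr4 was called without replicate 2 or 3 of 15 months, replicate 2 of 24 months or replicate 2 of 30 months. Egr4, an Egr factor of neurons, read 772.7, 907.2, 710.4 and 733.2 at 6 months and 344.2, 475.4, 373.7 and 349.7 at 30 months. These groups do not overlap, and the change was -1.02 ± 0.15 (adjusted p = 0.000435). Arc read 4450, 5859, 4590 and 5603 at 6 months and 2672, 3627, 2990 and 1221 at 30 months, again without overlap, a change of -1.06 ± 0.31 (0.0392).

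The other Brain calls were Egr1 (-0.69 ± 0.14, 0.00591), Ier5 (-0.57 ± 0.12, 0.00714), Egr2 (-1.41 ± 0.37, 0.0238), Egr3 (-0.55 ± 0.15, 0.0272) and Fosb (-0.59 ± 0.17, 0.036). Fos (-0.81 ± 0.33, 0.16), Nr4a1 (-0.70 ± 0.28, 0.141) and Npas4 (-0.65 ± 0.42, 0.395) had lower values without passing, and Jun (-0.21), Atf3 (-0.26), Dusp1 (-0.32) and Klf2 (-0.09) lay nearer 0. Egr1, Egr4 and Ier5 were kept under every omission, while Arc, Egr2, Egr3 and Fosb were not. The count fell to 3 without replicate 2 of 6 months and to 4 without replicate 3 or 4 of 6 months or replicate 1, 3 or 4 of 30 months. Of 15 activity-regulated effector genes of neurons 3 were called lower, among them the synaptic proteins Nptx2 (-0.66) and Nrn1 (-0.27). Summed neuron markers ran from 87330 to 92940 at 6 months and from 87800 to 92400 at 30 months. Hippocampus and cortex markers ran from 14900 to 15880 and from 11220 to 14190, lower without overlap. Astrocyte markers (6881 to 7264, then 9922 to 12910), macrophage markers (2131 to 2208, then 2492 to 3065) and neutrophil markers (3.49 to 23.1, then 25.4 to 372.4) were higher without overlap. The part of these cells and of the regions sampled in the members' change was not tested.

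Muscle and Lung had few calls. In Muscle Atf3 read 61.98, 81.5, 89.8 and 92.9 at 6 months, 188.8, 338.3, 219.2 and 175.4 at 15 months, 80.1, 92.89, 194 and 213.1 at 24 months, and 155.5, 153.9, 273.8 and 110.5 at 30 months. The 15- and 30-month libraries lie above all young ones and the 24-month libraries overlap them, with changes of 1.46 ± 0.32 at 15 months (adjusted p = 0.0456) and 1.02 ± 0.32 at 30 months (0.0427). It was the 1 member of 32 called at 15 months, when 28 had higher values and 0.405% of all genes were called higher. At 30 months Ier3, a survival-related early gene, was also called higher (0.73 ± 0.23, 0.0481, background 6.15%). Nr4a1, which in muscle regulates fuel use, was called lower (-0.86 ± 0.28, 0.0494, background 6.92%). The share of members called was 6.25% higher and 3.12% lower, near and below the shares of all genes. Nr4a1 read 3565, 2799, 4173 and 3147 at 6 months and 1511, 2295, 2057 and 1678 at 30 months, without overlap. Summed macrophage markers (708.2 to 882, then 1202 to 1635) and neutrophil markers (6.31 to 15.8, then 35.2 to 47.1) were higher at 30 months and endothelial markers (5865 to 7311, then 5206 to 5805) lower, none of them overlapping, and their part was not tested. All 3 calls of 30 months ended without any one of the 6-month libraries or replicate 3 of 30 months, the Muscle library with the lowest median rank correlation. The 15-month call ended in 11 of 16 omissions, all 4 of the 6-month libraries among them, while without replicate 3 of 30 months Jun and Dusp1 joined it and without replicate 1 of 15 months Ier5 did. The 30-month count was 1 without replicate 3 of 15 months or replicate 1, 2 or 4 of 24 months. No member was called at 24 months, when 1 had an unadjusted p under 0.05, edgeR and DESeq2 called 0, and 1.16% of all genes were called higher and 0.611% lower, and Jun was called there without replicate 3 of 30 months.

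In Lung, Dusp2 was called at 24 and at 30 months and no other of the 33 members was. It read 79.3, 50.8, 36.96 and 33.7 at 6 months, 121.5, 134.9, 87.6 and 115.4 at 24 months, and 134.7, 299.1, 67.5 and 251.5 at 30 months. The 24-month libraries lie above all young ones and 1 of the 30-month libraries overlaps them. It changed by 1.24 ± 0.37 (adjusted p = 0.0322, background 8.91%), a call that ended without replicate 1, 2 or 4 of 24 months or replicate 2, 3 or 4 of 6 months, and by 1.75 ± 0.37 (0.00417, background 10.7%), a call kept in all. Markers of T cells (320.3 to 441.6 at 6 months, 696.5 to 976 at 30 months), macrophages (6273 to 6654, then 10110 to 22920) and neutrophils (1126 to 2352, then 2566 to 5465) were also higher, those of endothelium (53690 to 56110, then 39080 to 46210) and smooth muscle (12660 to 14930, then 7001 to 10540) lower, without overlap, and their part was not tested. Fos (-0.40, adjusted p = 0.701), Egr1 (-0.32, 0.76) and Klf2 (-0.05, 0.928) did not pass at 30 months. At 15 months none was called (background 1.24% higher, 0.386% lower), 5 had an unadjusted p under 0.05, edgeR called 0 and DESeq2 1. Without replicate 2 of 30 months Dusp6 was called at 15 months, and without replicate 4 of 30 months Myc was called at 30 months.

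In Skin the values stood out at 15 months rather than later. There 32 of 34 members had higher values than at 6 months, with a median of 0.63, and 21 had an unadjusted p under 0.05. None passed the adjustment (background 0.161% higher and 0.0119% lower). By edgeR 1 member was called, with 25 of all 16804 genes higher and 0 lower. DESeq2 called 12 members, with 290 of all genes higher and 145 lower. Arc read 13.4, 16.9, 23.4 and 16.8 at 6 months and 65.8, 199.2, 238.4 and 27.4 at 15 months, without overlap (2.42 ± 0.53, adjusted p = 0.0747). The AP-1 subunit Fosl1, tested in Skin alone, read 12.2, 30.1, 10.6 and 7.22 and then 48.9, 285.3, 441.2 and 24.3 (adjusted p = 0.0888). Replicate 4 of 15 months was the lowest of its age in these genes. Without it 11 members were called higher, led by Junb (1.10 ± 0.13, 0.00245), Apold1 (2.98, 0.00745) and Arc (3.01, 0.0076). The library left out there is the one with low values of these same genes. The background of 0.161% is that of the fit of all 16 libraries, and the share without it is not given here. No member was called at 24 months (background 0.887% higher, 0.958% lower, with 3 members at an unadjusted p under 0.05) or at 30 months (0.167% and 0.553%, with 1), and edgeR and DESeq2 called 0 at both. Sik1 was called at 30 months without replicate 2 of 6 months (0.76, adjusted p = 0.0438).

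In Heart no member of 31 was called at 15 months (background 0.503% higher, 0.0839% lower), 24 months (3.75% and 1.17%) or 30 months (4.11% and 1.04%). An unadjusted p was under 0.05 for 5, 1 and 3 members, edgeR called 0 at each age, and DESeq2 called 1, 1 and 2. Fos read 153.4, 38.4, 22.1 and 59.4 at 6 months, 370.4, 73.4, 50.04 and 52.8 at 15 months, 208.8, 62.0, 51.2 and 12.2 at 24 months, and 90.8, 29.8, 25.1 and 19.8 at 30 months. The groups overlap, and replicate 1 was the highest at each age. Without the library that stood apart, replicate 4 of 24 months, 4 members were called lower at 30 months: Jund (-0.26 ± 0.06, adjusted p = 0.00836), Atf3 (-0.96 ± 0.29, 0.0334), Nr4a2 (-0.99, 0.0358) and Dusp5 (-0.63, 0.0473). Without it Egr3 was also called at 15 months (1.38, 0.0365) and Dusp5 at 24 months (-0.76, 0.0453), where Dusp5 was called without replicate 2 or 3 of that age as well. Atf3 was called at 30 months without replicate 3 of 24 months (0.0398).

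Because every comparison above shares the 6-month libraries, the 2 oldest ages were also set against 15 months, a comparison chosen after seeing the data. In Aorta 14 of 33 members were called lower at 30 months (background 3.28%, median -1.12) and 10 at 24 months (5.81%, median -0.87). The 30-month count ran from 10 to 18 over the omissions and the 24-month count from 6 to 14, lowest without replicate 2 and replicate 3 of 15 months respectively. Apold1 changed by -3.88 ± 0.35 (adjusted p = 6.12e-05), Nr4a1 by -3.47, Atf3 by -3.11, Sik1 by -3.03 and Fosl2 by -1.94. In Kidney at 30 months Gadd45b (0.95), Klf4 (0.53), Klf6 (0.37) and Ier5 (0.30) were called higher (9.3%) and Sik1 lower (-0.40, 10%), and the median over the members was -0.06. The count of 5 in Kidney was 3 without replicate 1, 3 or 4 of 15 months or replicate 4 of 30 months.

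At 24 months against 15 months Dusp6 was called lower in Kidney (-0.55, 2.14%) and Junb in Liver (-1.84, 2.53%), and both counts ran from 0 to 2 over the omissions. None was called there in Brain (0.29% of all genes higher, 0.383% lower), Heart (0.0909% and 0.126%), Lung (3.16% and 2.57%), Muscle (1.17% and 1.23%) or Skin (0% and 0.202%). An unadjusted p was under 0.05 for 6, 3, 6, 8 and 20 members, edgeR called 0 in each, and DESeq2 called 0, 1, 2, 2 and 14. In Skin the count was 13 without replicate 4 of 15 months.

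In Liver at 30 months the median against 15 months was -0.52 and none was called (9.14% of all genes higher, 8.1% lower), with 9 at an unadjusted p under 0.05, 3 called by edgeR and 9 by DESeq2. In Brain Egr1 (-0.54), Egr4 (-0.56) and Ier5 (-0.44) were called lower at 30 months (4.35%), a count that fell to 0 without replicate 2 of 15 or replicate 1 of 30 months and to 1 without replicate 4 of 15 or replicate 3 or 4 of 30 months, and rose to 6 and 5 without replicates 1 and 2 of 24 months. In Muscle Nr4a1 (-1.06), Dusp1 (-0.71) and Nr4a3 (-2.39) were called lower (7.25%), a count that was 1 without replicate 2 of 15 months and 5 without replicate 2 of 30 months. In Skin Junb (-0.93), Dusp6 (-1.17), Fosl1 (-3.01), Nr4a1 (-1.64) and Nr4a3 (-2.73) were called lower (1.91%), a count that was 15 without replicate 4 of 15 months, 0 or 1 without replicate 2 or 3 of 15 months or any of the 30-month libraries, 2 and 8 without replicates 1 and 2 of 6 months, and 3 without replicate 3 of 24 months. In Lung Dusp2 was called higher (1.73, 4.98%), and 2 members were called without replicate 3 of 15 or replicate 2 of 30 months. In Heart none was called (0.0839% of all genes higher, 0.0979% lower), with 6 at an unadjusted p under 0.05, 0 called by edgeR and 2 by DESeq2.

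The change from 6 to 30 months was then compared between tissues in 1 fit of all libraries of the series. Counts are over the 26 members, and the 11444 genes, that passed the filter on low reads in every tissue, with p-values adjusted over all 21469 genes fitted. The change differed between the 8 tissues for 22 of the 26, when 41.2% of the genes tested in every tissue differed. The smallest adjusted p belonged to Sik1 (2.28e-09), Klf6 (1.2e-08), Atf3 (1.55e-07) and Apold1 (1.63e-07). The members that did not pass were Ier2 (0.0836), Jund (0.129), Myc (0.218) and Maff (0.416). Set against the mean of the other 7 tissues, the Aorta change was called lower for 23 members (background 5.9%), the Kidney change higher for 5 (2.79%), the Liver change higher for 12 (15.6%) and the Muscle change higher for Sik1 (2.75%). In Brain, Heart, Lung and Skin none was called (0.393%, 0.708%, 2.53% and 1.84% of genes higher, and 0.166%, 0.315%, 1.35% and 5.52% lower). Each tissue, Aorta included, also enters the mean that the others are set against. This fit holds 1 spread per gene for all tissues, although Fos had an SD of 0.601 in Brain and 1.298 in Heart. Calls can thus differ from those within a tissue. Egr1 was called for Aorta here (adjusted p = 0.00272) and not in the fit of Aorta alone. For Brain it was not called here (0.775) and was called in the fit of Brain alone.

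Within a tissue many members varied with Fos from library to library. For this, each library's deviation from the mean of its age was correlated over the 16 libraries of a tissue, with the values permuted within ages 100000 times and adjusted over 246 relations. Fos correlated positively with its fellow members in 202 of 246 relations, 57 passed the adjustment by Pearson's r and 44 by Spearman's rho, and none that passed was negative. The median r was 0.51 over all relations and 0.47 without the 2 libraries farthest from the median of Fos. In Lung 26 of 32 members had an r over 0.5, when 5.01% of all genes did. The counts were 17 of 33 in Brain (5.01%), 16 of 32 in Aorta (10.8%), 16 of 30 in Heart (16.2%), 14 of 29 in Kidney (5.25%), 14 of 31 in Muscle (5.18%), 12 of 33 in Skin (2.98%) and 10 of 26 in Liver (10.7%). The relations that passed numbered 17 in Lung, 11 in Brain, 8 in Aorta, 8 in Heart, 7 in Muscle, 4 in Skin, 1 in Kidney and 1 in Liver.

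Egr1 had the highest median r with Fos over the 8 tissues (0.855, with 5 relations passing), followed by Ier2 (0.841, with 7 passing), Junb (0.823), Dusp1 (0.812), Fosb (0.766) and Btg2 (0.753). Within Brain, Junb reached r = 0.968 (rho = 0.971, both adjusted p = 0.00123, r = 0.967 without the 2 farthest libraries). In Lung, Btg2 reached r = 0.941 (rho = 0.903, adjusted p = 0.00738 and 0.00914, r = 0.886 without them). In Kidney, Ier2 passed by r (0.910, adjusted p = 0.0433) and not by rho (0.853, 0.0556), and in Liver Egr2 passed by both (r = 0.837, rho = 0.798, adjusted p = 0.00738 and 0.0127). At the other end were Nr4a3 (median r = -0.25), Maff (-0.10), Myc (-0.08), Ier5 (-0.05), Klf4 (-0.01) and Klf6 (0.02). Between any 2 members, the median r ran from 0.312 in Skin to 0.640 in Lung, against about 0 for pairs of all genes. In Heart it fell from 0.430 to 0.220 without replicate 4 of 24 months, in Kidney from 0.375 to 0.153 without replicate 2 of 15 months and in Skin from 0.312 to 0.190 without replicate 4 of 15 months.

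**Figure D4:**
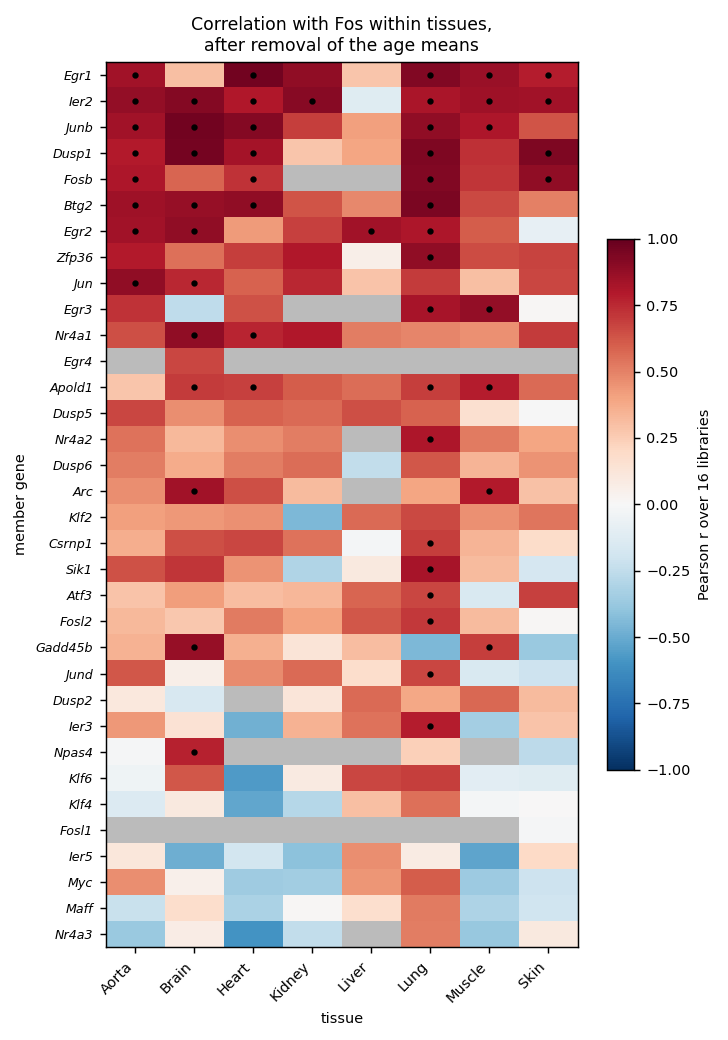
Pearson's r between Fos and each other member (rows) in each tissue (columns), over the deviations of 16 libraries from their age means, with a dot where the adjusted p is under 0.05 and grey where the gene was not tested. Egr1, Ier2, Junb, Dusp1, Fosb and Btg2 are high in most columns (medians 0.753 to 0.855), and Nr4a3, Maff, Myc and Ier5 have medians below 0.

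In some libraries nearly all members were high or low at once. In Aorta replicate 2 of 6 months had all 33 members above the mean of its age, with a median deviation of 0.70 on the log2 scale, and replicate 4 of 15 months had a median deviation of -0.69. In Liver replicate 3 of 15 months was above in 26 of 27 members (0.96). In Lung replicate 1 of 15 months was above in 32 of 33 (0.77), and in Brain replicate 2 of 24 months in 33 of 34 (0.51). In Heart replicate 4 of 24 months, the library that stood apart, had a median of -0.82. The 24- and 30-month Aorta libraries were set against means that include replicate 2 of 6 months, and without it 13 members were called lower at 30 months and 9 at 24 months.

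**Figure D5:**
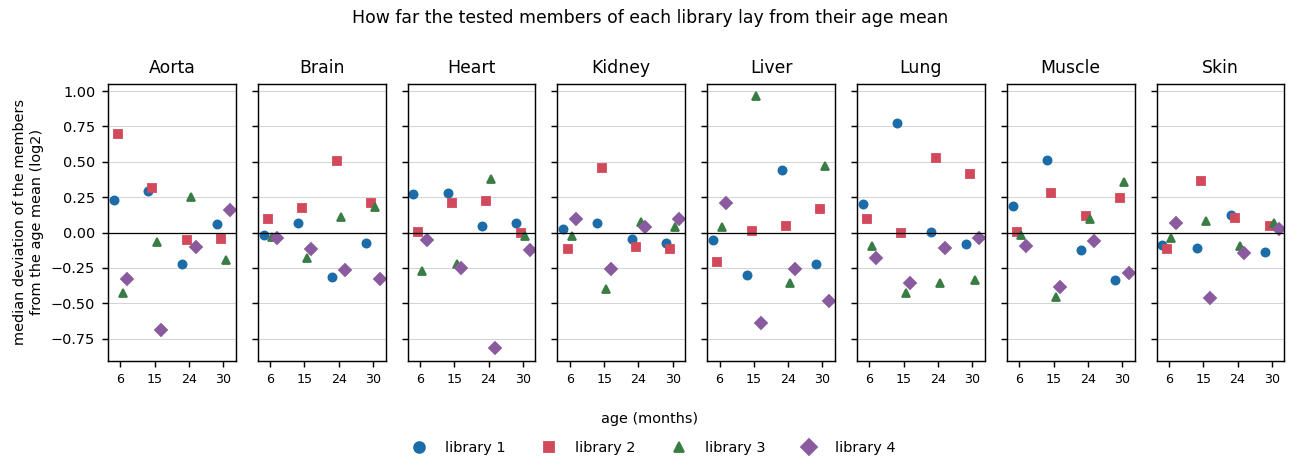
Median deviation of the tested members from the mean of their age (log2 units) for each library, by tissue and age, with the marker giving the library number. The libraries of an age spread widest in Liver at 15 months (-0.64 to 0.96), and by over 1 log2 unit also in Aorta at 6 months (-0.42 to 0.70) and 15 months (-0.69 to 0.31), Lung at 15 months (-0.43 to 0.77) and Heart at 24 months (-0.82 to 0.38).

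Genes outside the list followed Fos as closely in some tissues. By the r of deviations over 16 libraries the nearest were Ccn1, a matricellular primary response gene, in Brain (0.923), Rhoh in Liver (0.941), Lrp12 in Heart (0.908), Soga1 in Aorta (0.896), Lmf1 in Muscle (0.892), Insig1 in Kidney (0.883), Ncoa7 in Skin (0.881) and Kcnb2 in Lung (0.879). Among the next 4 in each were Kcne4, Tob1, Sh2d3c and Slc26a2 in Brain, H2-DMb1, Tcirg1, Tbxas1 and Cmtm7 in Liver, and Pdzrn4, Hs3st1 and Chpf2 in Heart. In Aorta they were Akap5, Mknk2, Epha1 and Smad6, in Muscle Zup1, Acvr2b, Gem and Ehhadh, and in Kidney Srsf4, Acsl3, Smagp and Srebf1. In Skin they included Nme4, Golm2 and Ror1, and in Lung Aldh1l1, Zfand4, Paip2b and Spry2. These are the extremes over all genes tested in a tissue and get no test.

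Libraries of different tissues that carry the same age and number were also compared, although the labels do not say that a number marks a mouse. Fos deviations correlated positively in 28 of 28 pairs of tissues. The median r was 0.483, from 0.167 (Liver and Lung) to 0.78 (Lung and Muscle). Each tissue enters several pairs, so the 28 are not independent. How often other genes are positive over these pairs is not given here, so the count is not read as a trait of Fos. Correlated across all genes, same-numbered libraries had medians from -0.0151 (Lung and Skin) to 0.1035 (Kidney and Lung). That measure runs over genes and is not a background for the r of 1 gene over libraries. The pair Brain and Muscle passed the adjustment over the 28 pairs (r = 0.739, rho = 0.791, adjusted p = 0.0347), and 3 pairs passed by rho. Without the 2 farthest libraries the median r was 0.291.

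Lists of related genes were counted in the other tissues at 30 months. The counts are read against the shares of all genes called at that age, which were 14.1% higher and 14.2% lower in Kidney, 13.8% and 11% in Liver, 10.7% and 8.64% in Lung, 6.15% and 6.92% in Muscle, 4.11% and 1.04% in Heart, 3.32% and 4.18% in Brain, 3.08% and 2.59% in Aorta, and 0.167% and 0.553% in Skin. With lists of 7 to 24 tested genes, most of the counts below are 1 to 4 genes, and none of them was tested. Of other primary response genes 7 of 22 were called higher in Liver, with Nfkbiz at 1.37 and Gem at 1.36, 5 of 24 higher and 1 lower in Lung, 1 higher in Muscle, and none in Brain, Heart or Skin. Of 24 upstream MAP kinases and SRF, ternary complex and CREB factors, 1 was called lower in Aorta (Srf, -0.57), Brain, Heart and Lung each, 3 lower in Muscle, 2 higher and 4 lower in Kidney, and 2 higher in Liver (with Mapk7 at 1.29). Of 15 other AP-1 partners and phosphatases 4 were lower in Aorta, with Dusp10 at -2.42 and Dusp4 at -1.28, and 3 higher in Liver. In Kidney 2 were higher and 1 lower, in Brain 1 and 2, in Lung 1 and 1, and in Muscle 1 was lower. Heat shock genes were called lower in Kidney (2, with Hsp90aa1 at -0.83), Brain (1, Hsph1) and Lung (1, Hspb1 at -1.01) and in no tissue higher. Glucocorticoid response genes were called higher in Kidney (3, with Cdkn1a at 1.62), Lung (3), Muscle (3), Heart (2) and Liver (1) and in no tissue lower. Of the hypoxia genes Adm was higher in Liver (2.20). Between 1 and 2 of the 8 were higher in Brain, Heart, Lung and Muscle, and 1 was lower in Kidney, Lung and Muscle each. Beyond Brain and Aorta, the neuronal effector genes had 1 call higher and 2 lower in Kidney, 1 higher in Liver, 3 higher and 2 lower in Lung, and 2 lower in Muscle.

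The remaining pairs were too low to test: Fosl1 in all tissues but Skin, Egr4 in all but Brain, Npas4 in Heart, Kidney, Liver and Muscle, Fosb and Egr3 in Kidney and Liver, Nr4a2, Nr4a3 and Arc in Liver, and Dusp2 in Heart. In all, 26 members were tested in every tissue. Fosl1, Nr4a3 and Npas4 were called at no age against 6 months in any tissue in which they were tested.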

How the data were processed

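Per the labels' protocols, RNA was extracted with RNAiso Plus and made into libraries with the Illumina Stranded mRNA Prep. Per the submitters' processing notes the tools were STAR, RSEM, DESeq2 and FastQC (no versions) and the build was GRCm39. No source used here names the annotation. For each tissue the authors deposited a signal matrix, that is reads normalised within that tissue, with a column per library. In each library 100% of values became whole reads within 0.01 reads after multiplication by 1 factor (largest deviation 0.0017), which gave each library's depth (median 15.6 M reads). Every sample column was used. Because tissues were normalised separately, ages were compared within a tissue.

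The 35 members and all gene lists were chosen with earlier results of these data known. The design named edgeR's quasi-likelihood test for counts. As the files hold normalised values, limma-trend (limma 3.58.1, R 4.3.3) on log2(value + 1) took its place, which understates changes of low genes. It was fitted to the 16 libraries of a tissue with 1 mean per age, over genes kept by filterByExpr at a minimum count of 10 recovered reads, with Benjamini-Hochberg adjustment over all of them. The change from 6 to 30 months was compared between tissues by an F test in a fit of all libraries with 1 spread per gene. It was counted over genes tested in every tissue, a restriction chosen after seeing the data. Deviations from age means were correlated with values permuted within ages, adjusted over the relations computed. The fits within a tissue were also run on simulated counts. Each gene was drawn independently there, so libraries in which many members shift together were not covered.

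Named genes were every member past the threshold (the 8 smallest adjusted p of a tissue where more passed, to which the others were added after their values were seen), the panel Fos, Jun, Egr1, Atf3, Nr4a1, Dusp1, Klf2 and Arc, the members and 5 other genes most correlated with Fos, and the genes of each list with the smallest adjusted p. Genes with Gm or Rik symbols were left out of the correlated genes, and a few others of them are not reported here. Alternatives were edgeR 4.0.16 with TMM, DESeq2 1.42.0, TMM scaling, pseudocounts of 0.1 and 5, no filter, the 2 ages alone, the replicate number as a block, and leaving out each library. Comparisons against 15 months were added after seeing the data. No 2 replicates agreed within sampling noise (chi-square over degrees of freedom at least 2.41). Files were read with the package data.table (version 1.17.8), pandas 2.3.3 and numpy 2.4.6 in Python 3.11.15, and figures drawn with matplotlib 3.10.9.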

Additional observations from a re-analysis of the deposited data

Results flagged for a closer look

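Of 256 groups of 4 libraries examined for the 8 panel members, 29 held a library far from the other 3 by a criterion (its gap to the nearest other library as a share of the group's range) that chance meets in about 1 group in 20 where values are normally distributed. Reads are skewed upwards, and in 27 of the 29 that library was the highest. On the scale of log2(value + 1) the criterion was met in 16 groups, 12 of them among the 29, with the highest library in 10 of the 16. None is explained here, and the values are normalised reads of the library named, beside the nearest other library of its group.

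In Heart, replicate 1 held Fos at 370.4 (nearest 73.4) and Egr1 at 1151 (311.4) at 15 months, Egr1 at 744.8 (193.5) at 24 months and Fos at 90.84 (29.8) at 30 months. In Lung, replicate 1 of 15 months held Fos at 5789 (1518), Egr1 at 3786 (1111) and Nr4a1 at 3458 (722.7). Replicate 2 of Lung held Egr1 at 3459 (801.3) at 24 months, and Egr1 at 1619 (595.2) and Dusp1 at 5565 (2463) at 30 months. In Muscle, replicate 1 of 15 months held Fos at 1807 (363.4), Egr1 at 3215 (341.3) and Klf2 at 765.3 (460.5), and replicate 1 of 6 months Egr1 at 766 (192.7).

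In Skin, replicate 4 of 6 months held Fos at 757.7 (208.1) and Egr1 at 950.2 (488.4). In Aorta, replicate 3 of 24 months held Jun at 1679 (747.5) and Egr1 at 2084 (661.3), and replicate 2 of 6 months Arc at 592.8 (237.8). In Kidney, replicate 2 of 15 months held Atf3 at 119.4 (31.5) and Arc at 260.3 (75.4), and replicate 1 of 6 months Atf3 at 25.9 (15.2), while Klf2 was low in replicate 1 of 24 months at 164.6 (288.4). In Liver, replicate 1 of 24 months held Fos at 80.78 (18.5) and Atf3 at 70.31 (30.8), replicate 3 of 15 months Atf3 at 128.2 (34.5), and replicate 1 of 6 months Nr4a1 at 255.3 (20.9) and Arc at 1.798 (0), the last near the floor of detection. In Brain, Jun was low in replicate 4 of 24 months at 744.7 (956.9).

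The change from 6 to 30 months differed between the 8 tissues for 22 of the 26 members tested in every tissue, by the limma F test adjusted over all genes. Of all genes tested in every tissue, 41.2% differed. The adjusted p was 2.28e-09 for Sik1, 1.2e-08 for Klf6, 1.55e-07 for Atf3, 1.63e-07 for Apold1, 3.06e-07 for Egr2, 1.46e-06 for Klf4, 3.36e-06 for Ier5, 1.66e-05 for Fosl2, 2.49e-05 for Ier3 and 5.81e-05 for Jun. It was 0.000147 for Klf2, 0.000258 for Nr4a1, 0.000438 for Btg2, 0.000573 for Fos and 0.000757 for Dusp5. It was 0.00219 for Egr1, 0.00459 for Csrnp1, 0.00793 for Gadd45b, 0.0106 for Dusp6, 0.0223 for Dusp1, 0.0254 for Junb and 0.0295 for Zfp36.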

How the results depend on the processing

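Counts below are members past the threshold against 6 months. Percentages of all genes called, given above, are those of the main limma fits of all libraries. They are not those of edgeR, DESeq2, the other alternatives or the fits with a library left out. DESeq2 called 1, 1 and 2 in Heart at 15, 24 and 30 months, 12 in Kidney at 15 months, 11, 3 and 10 in Liver, 1 at 15 and 2 at 30 months in Lung, 6 in Muscle at 15 months and 12 in Skin at 15 months. edgeR called 3 in Kidney and 0 in Liver at 24 months, 2 in Lung at 30 months, 0 in Muscle and 1 in Skin at 15 months. With TMM scaling, or a pseudocount of 0.1 or 5, the Liver count at 24 months was 0, and a pseudocount of 5 gave 1 in Brain and in Heart at 24 months. Without the filter the counts were 0 in Liver and in Muscle at 15 months and 0 in Muscle at 30 months. With the 2 ages fitted alone they were 1 in Brain at 24 months, 1 and 8 in Heart at 15 and 30 months, 1 and 15 in Kidney and 3 and 5 in Liver at 15 and 24 months, 1, 2 and 2 in Lung, and 2 and 3 in Muscle at 15 and 24 months. With the 2 ages alone, all genes called numbered 1147 higher and 913 lower of 13797 in Heart at 30 months. They numbered 1247 and 1005 of 14946 in Kidney and 1223 and 1122 of 12733 in Liver at 24 months. The cause of the shifts in the members' counts was not tested.

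By Spearman's rho the members correlated with Fos numbered 0 in Kidney and 10 in Lung. The median rho between members ran from 0.241 in Skin (median r 0.312) to 0.596 in Lung (0.640). It was 0.285 in Kidney (0.375), 0.350 in Liver (0.415) and 0.344 in Muscle (0.385). No called member reversed its direction under any alternative. Of 245 results, 243 kept direction and call with a pseudocount of 0.1, 242 with TMM scaling, 227 with edgeR and 213 with DESeq2.

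The replicate numbers share no stated source. Within a tissue, same-numbered libraries of different ages had deviations correlating from -0.53 (Skin) to 0.47 (Aorta), with medians per tissue from -0.06 to 0.05 that lay above those of different numbers in 7 of 8 tissues, and between tissues libraries of the same age and number had a fitted correlation of 0.0146. With the number as a replicate block the counts were 5 and 15 in Brain at 24 and 30 months, 1 in Kidney at 15 months, 3 and 2 in Liver at 15 and 24 months, and 2 in Lung at 30 months. Over all genes, 114 were then called higher and 34 lower in Brain at 24 months, and 637 and 779 at 30 months, of 16190. In Kidney 86 and 19 of 15625 were, in Liver 90 and 65, then 988 and 516 of 13420, and in Lung 1889 and 1515 of 17112.

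Leaving out each library in turn, the counts at 15, 24 and 30 months were 0 to 0, 9 to 20 and 13 to 22 (Aorta), 0 to 0, 0 to 1 and 3 to 8 (Brain), and 0 to 1, 0 to 1 and 0 to 4 (Heart). They were 0 to 4, 2 to 7 and 13 to 20 (Kidney), 0 to 7, 0 to 4 and 3 to 10 (Liver), 0 to 1, 0 to 1 and 1 to 2 (Lung), 0 to 3, 0 to 1 and 0 to 2 (Muscle), and 0 to 11, 0 to 0 and 0 to 1 (Skin). The median r between members ran, for Skin, from 0.190 to 0.358, for Muscle from 0.359 to 0.413, for Lung from 0.524 to 0.668 and for Liver from 0.229 to 0.458. For Kidney it ran from 0.153 to 0.421, for Heart from 0.220 to 0.484, for Brain from 0.272 to 0.435 and for Aorta from 0.295 to 0.487. Depth limits the low members: at under 10 reads, as for Fos in the 6-month Kidney libraries, the log scale understates a change.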

Other observations

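Other primary response genes followed Fos from library to library in some tissues. Of 24 in Lung, 12 had an r over 0.5 with Fos over the 16 deviations from age means, when 5.01% of all genes did (median 0.477, highest Ptgs2 at 0.824). Of 23 in Muscle 10 did, against 5.18% of all genes (median 0.459, highest Gem at 0.859). In Brain 1 of 21 did, near the 5.01% of all genes. It was Ccn1, a secreted matricellular protein, at 0.923. Of the 8 heat shock genes none had an r over 0.5 with Fos in any tissue, when 2.98% (Skin) to 16.2% (Heart) of all genes did. Their medians ran from -0.32 in Brain to 0.31 in Lung. These are descriptions over libraries that share their preparation, with no test.

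The library numbered 1 held the highest Fos value in 20 of the 32 groups of tissue and age, those numbered 2, 3 and 4 in 8, 3 and 1. It held the highest Ier2 in 20, Junb in 18, Dusp1 in 17, and Egr1 and Btg2 in 16 each. Klf4 and Ier5 were highest there in 3 groups each, Maff in 4, and Fosl2 and Sik1 in 5 each, and Apold1 was highest in the library numbered 2 in 17 groups. Over the 26 members tested in all 8 tissues the library numbered 1 was highest in a median of 7 groups and that numbered 2 in 10.5. Over the 11444 genes tested in all 8 tissues the library numbered 1 was highest in a median of 7 groups and that numbered 2 likewise in 7, with 3 and 14 groups at the 5th and 95th percentiles for the library numbered 1. The labels do not say what a number stands for, nor in what order the mice were handled, and whether either bears on these counts was not tested.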
